A study of Rattus norvegicus with 9 samples.

Results

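Bile acid and organic anion transporters move bile acids, bilirubin conjugates, hormones and drugs into the hepatocyte from sinusoidal blood and out of it into bile or back to blood. The set was defined by 8 gene symbols: Slc10a1, Slco1b2, Slco1a1 and Slco1a4 for sinusoidal uptake, Abcb11, Abcc2 and Abcb4 for canalicular export, and Abcc3 for basolateral export. Of these, 7 were rows of both gene tables, among 15565 genes that the tables share, and all 7 passed the filter on low counts that left 12041 genes. Abcb4, the phosphatidylcholine floppase, was not analysed here.

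RNA from rat liver was sequenced in 9 libraries, 3 in each of 3 groups, and all samples were labelled male and strain SD. The normal diet group was given a normal diet. Rats of the high-fat diet group, called the model group in the labels, ate a high-fat diet for 8 weeks, meant to induce fatty liver disease. The title of high-fat diet replicate 1 carries a different group code from the titles of the other libraries of its group. The labels do not say why, and that library was kept in the group. Whether it was handled differently was not tested. The SCL-treated group was given SCL, the plant Smilax china L., at a dose and for a time not given in the labels, which also do not state what diet these rats ate. The text on the design writes SCS for the treated group and the sample labels write SCL, and they were taken as 1 group. The labels number the samples but do not say that each came from a separate animal, so a p-value here reflects only how far these libraries scatter.

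Bile acids return from the gut in portal blood and are taken up at the sinusoidal membrane by the sodium-dependent carrier NTCP, the product of Slc10a1, and by sodium-independent organic anion transporting polypeptides, the products of the Slco1 genes. They leave across the canalicular membrane through the bile salt export pump BSEP, the product of Abcb11, while MRP2, the product of Abcc2, exports bilirubin glucuronides and glutathione conjugates. MRP3, the product of Abcc3, exports conjugates back to blood, is scarce in healthy rat hepatocytes, and is known to increase in cholestasis. The nuclear receptor FXR, which binds bile acids, raises Abcb11 transcription, and HNF1 and HNF4 factors are known regulators of hepatocyte uptake carriers.

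Total counts per library ran from 12413774 to 15521648 reads. Transcripts of 13 mitochondrial genes took 3.85% to 11.2% of the reads in normal diet libraries, 4.90% to 44.1% in high-fat diet libraries and 7.04% to 49.0% in SCL-treated libraries. High-fat diet replicate 3 and SCL-treated replicate 2 were the 2 libraries above 40%. Hepatocyte markers were present in every library, 13 of 13 genes, with a summed level of 175190 to 215210 CPM (counts scaled to library size by TMM) on normal diet, 82508 to 173490 CPM on high-fat diet and 83920 to 259640 CPM with SCL. The lowest hepatocyte marker sum of each of the latter groups was in the library above 40% mitochondrial. Cholangiocyte markers summed to 35.4 to 51.7 CPM, 33.9 to 67.9 CPM and 42.7 to 105 CPM in the same order of groups. Periportal hepatocyte markers summed to 7232 to 12610, 3148 to 8774 and 5090 to 8045 CPM. For pericentral hepatocyte markers the sums were 3216 to 3597, 2757 to 3742 and 3985 to 5615 CPM. Kupffer cell and macrophage markers summed to 619 to 838, 298 to 679 and 269 to 765 CPM. The part of these shares and marker sums in the transporter values was not tested except where values without these libraries, or with the share in the fit, are given. In bulk tissue, fewer hepatocytes and less RNA per hepatocyte cannot be told apart.

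Promoters of the members were read from RefSeq on build GRCr8, as 250 bases before to 50 bases after the start site, and 5 of the 7 members matched. They are shown for Slco1a1 and Slco1a4, neighbours in the genome whose levels are set against each other, and for Abcc2 and Slco1b2, which lie on different chromosomes and whose levels correlated. Slco1b2, Slco1a4 and Slco1a1 follow one another on chromosome 4, with no other protein-coding gene between them in RefSeq. The promoters of Slco1a1 (chr4:176681943-176682242, minus strand) and Slco1a4 (chr4:176495797-176496096, minus strand) are printed with capitals at runs of at least 8 identical aligned bases, 68 bases in each.
Slco1a1: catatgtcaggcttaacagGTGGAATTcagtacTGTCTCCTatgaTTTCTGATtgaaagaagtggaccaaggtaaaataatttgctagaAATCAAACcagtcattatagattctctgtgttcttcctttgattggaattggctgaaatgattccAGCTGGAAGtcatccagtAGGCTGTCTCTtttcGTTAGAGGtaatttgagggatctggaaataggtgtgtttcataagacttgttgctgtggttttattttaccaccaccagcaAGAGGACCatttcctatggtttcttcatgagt
Slco1a4: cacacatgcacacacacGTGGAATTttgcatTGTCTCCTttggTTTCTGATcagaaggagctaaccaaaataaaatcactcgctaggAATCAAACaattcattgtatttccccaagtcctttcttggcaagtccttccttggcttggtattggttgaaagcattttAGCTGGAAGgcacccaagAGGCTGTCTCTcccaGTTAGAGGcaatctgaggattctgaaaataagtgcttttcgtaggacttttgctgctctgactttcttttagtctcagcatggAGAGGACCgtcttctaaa
These windows were identical at 206 of 283 aligned bases, or 72.79%. The other pairs of member promoters shared 53.07% to 60.38% of aligned bases. Reads of such close relatives can be divided wrongly between them, and how the authors' counting treated them is not given in the sources used here.

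The promoters of Abcc2 (chr1:252613625-252613924, plus strand) and Slco1b2 (chr4:176282334-176282633, plus strand) are printed with capitals at matches, on either strand, to 5 short motifs. One was GTTAAT, known as a half-site of HNF1 factors. Another was AGGTCA, the half-site of many nuclear receptors. Core promoter elements were covered by TATAAA and, as the letters of the CAAT box, by CCAAT. The last was TGACNNNGC, the core of the antioxidant response element that NRF2 binds.
Abcc2: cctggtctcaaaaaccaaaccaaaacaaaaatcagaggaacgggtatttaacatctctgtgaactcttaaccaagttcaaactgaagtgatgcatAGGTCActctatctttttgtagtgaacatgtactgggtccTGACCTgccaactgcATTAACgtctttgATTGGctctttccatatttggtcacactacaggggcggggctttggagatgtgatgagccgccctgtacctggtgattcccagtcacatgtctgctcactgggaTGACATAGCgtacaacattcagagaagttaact
Slco1b2: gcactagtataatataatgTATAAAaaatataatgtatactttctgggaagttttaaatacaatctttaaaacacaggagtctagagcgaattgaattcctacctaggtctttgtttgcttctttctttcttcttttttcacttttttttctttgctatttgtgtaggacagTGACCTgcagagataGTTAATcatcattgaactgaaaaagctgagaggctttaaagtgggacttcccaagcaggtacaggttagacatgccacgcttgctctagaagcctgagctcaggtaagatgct
GTTAAT occurred 1 time in each of the Abcc2, Slco1b2 and Slc10a1 windows, and 7.452% of 33469 RefSeq promoters of this length hold it. AGGTCA occurred 2 times in Abcc2, 1 time in Slco1b2 and 2 times in Slc10a1 (chr6:106357895-106358194, minus strand), against 16.18% of all promoters with at least 1 match. Neither motif matched in the Slco1a1 or Slco1a4 window. TATAAA was found only in Slco1b2 among the 5 (14.22% of all promoters), TGACNNNGC only in Abcc2 (12.06%), and CCAAT in Abcc2, Slco1a4 and Slco1a1 (37.49%). No 2 of these motifs overlapped in the printed windows. A match describes letters in a window and not a bound site. Slco1a1, with neither GTTAAT nor AGGTCA, also correlated with Abcc2 (r of log2 CPM over the 9 libraries 0.93). Slc10a1, with both, had r = 0.16 with Abcc2 and 0.31 with Slco1b2. Any link between these motifs and the levels was not tested.

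Levels of the 7 members were set against each other only per length, as FPKM, in which reads are scaled to transcript length and library depth. Slc10a1 was the most abundant member in each group, at 383 ± 36.1 FPKM on normal diet, 269 ± 80.0 FPKM on high-fat diet and 317 ± 92.2 FPKM with SCL (SD, n = 3). That placed it 172nd, 245th and 224th among all nuclear genes. Slco1b2 came next at 157 ± 45.8, 115 ± 75.0 and 119.6 ± 25.9 FPKM in the same order of groups. Slc10a1 did not overlap Slco1b2 on normal diet or with SCL, and on high-fat diet the libraries of these genes overlapped, although Slc10a1 was above Slco1b2 inside each library.

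**Figure D1:**
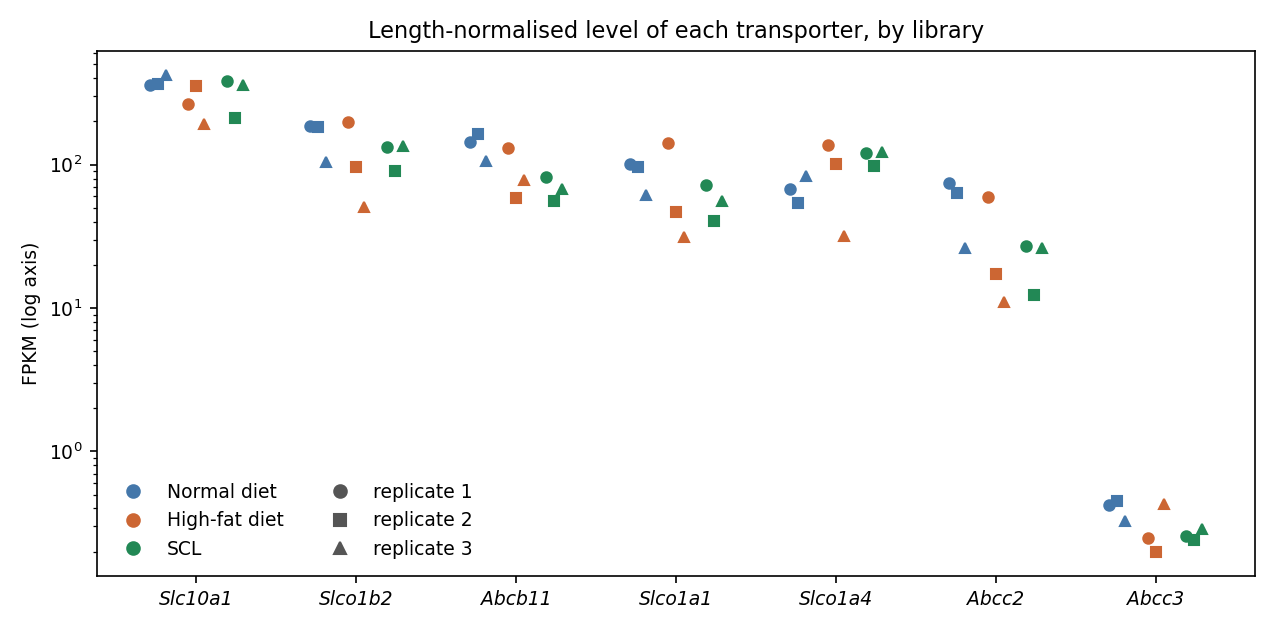
Level of each transporter per length, in FPKM on a log axis, with 1 point per library, coloured by group and shaped by replicate number. Genes are ordered by their mean on normal diet, from Slc10a1 (383 FPKM) to Abcc3 (0.400 FPKM), and Slco1a4 is the gene whose SCL-treated libraries all sit above its normal diet libraries.

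The middle of the order differed between groups. On normal diet Abcb11 (138 ± 29.0 FPKM) overlapped Slco1b2, and both lay above Slco1a1 (85.6 ± 21.5 FPKM), Slco1a4 (68.4 ± 14.5 FPKM) and Abcc2 (54.5 ± 25.3 FPKM), of which neighbours overlapped. Slco1a4 thus stood at place 5 of the 7 members. With SCL it stood at place 3, at 114 ± 14.3 FPKM, overlapped Slco1b2 and did not overlap Abcb11 (68.4 ± 13.1 FPKM), which in turn overlapped Slco1a1 (55.9 ± 15.6 FPKM). Abcc2 was at place 6 with SCL, at 21.9 ± 8.32 FPKM, apart from its neighbours. On high-fat diet Slco1a4 (89.6 ± 53.0 FPKM), Abcb11 (89.4 ± 37.9 FPKM), Slco1a1 (72.9 ± 59.3 FPKM) and Abcc2 (29.3 ± 26.5 FPKM) overlapped at every step. Inside each library, however, Slco1a1 was above Abcc2 on high-fat diet, and Abcb11 was above Slco1a1 with SCL. Abcc3 was the lowest in each group, at 0.400 ± 0.0655, 0.292 ± 0.121 and 0.262 ± 0.0228 FPKM, and overlapped no other member.

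High-fat diet against normal diet asks how the liver of the fatty liver model differs from the control. No transporter passed the test here. Fitted log2 fold changes were below 0 for 6 of 7 members with TMM scaling, but for 1 (Abcc2) with libraries scaled to hepatocyte markers, which moved the median of all genes to 0.66. With TMM scaling the members' median was -0.42 and that of all genes tested was 0.03. The edgeR quasi-likelihood test called 0 of 7 members at an adjusted p under 0.05, against 0.00830% of all genes. DESeq2 and limma-voom with quality weights each also called 0 of 7, against 0.416% and 0.216% of genes. At an unadjusted p under 0.05, edgeR counted 0 members (4.32% of all genes), DESeq2 counted 1 (5.92%) and limma-voom counted 4, all lower (30.0%), namely Abcb11, Abcc2, Slco1a1 and Slco1b2. Without high-fat diet replicate 1, edgeR too counted 4, in a fit where 20.6% of all genes reached that threshold. On TMM-scaled CPM the groups did not overlap for 1 member, Abcb11, against 10.6% of all genes, and by FPKM Abcb11 overlapped too.

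SCL-treated against high-fat diet asks how the treated livers differed from those of the model. Again 0 of 7 members were called by edgeR, DESeq2 or limma-voom, against 0%, 0.00832% and 0% of all genes. By unadjusted p the count was 0 with edgeR (1.95% of genes), 0 with DESeq2 (2.80%) and 0 with limma-voom (7.69%). The members' median log2 fold change was -0.03, as was that of all genes, with 3 values above 0 and 4 below. Slco1a4 was the 1 member whose groups did not overlap on TMM-scaled CPM, against 4.78% of all genes, and by FPKM its groups overlapped.

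SCL-treated against normal diet shares its libraries with both comparisons and is no separate support for either. edgeR, DESeq2 and limma-voom each called 0 of 7 members, against 0.00830%, 0.333% and 1.26% of all genes. At an unadjusted p under 0.05 edgeR counted 2 members, Slco1a4 higher and Abcb11 lower, or 2 of 7 against 6.88% of all genes. DESeq2 counted 3 (9.60% of genes) and limma-voom 3 (28.1%), in each case with Abcc2 added on the lower side. Groups did not overlap for 3 members, Slco1a4 higher and Abcb11 and Abcc3 lower, on TMM-scaled CPM (15.3% of all genes), nor did they by FPKM. The edgeR count was 0 without normal diet replicate 1 or 2 or any 1 SCL-treated library, 1 without high-fat diet replicate 2, and 3 without normal diet replicate 3 or high-fat diet replicate 1 or 3. The share of all genes ran from 2.32% to 12.7% over these fits. The members' median was -0.36 and that of all genes 0.03.

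**Figure D2:**
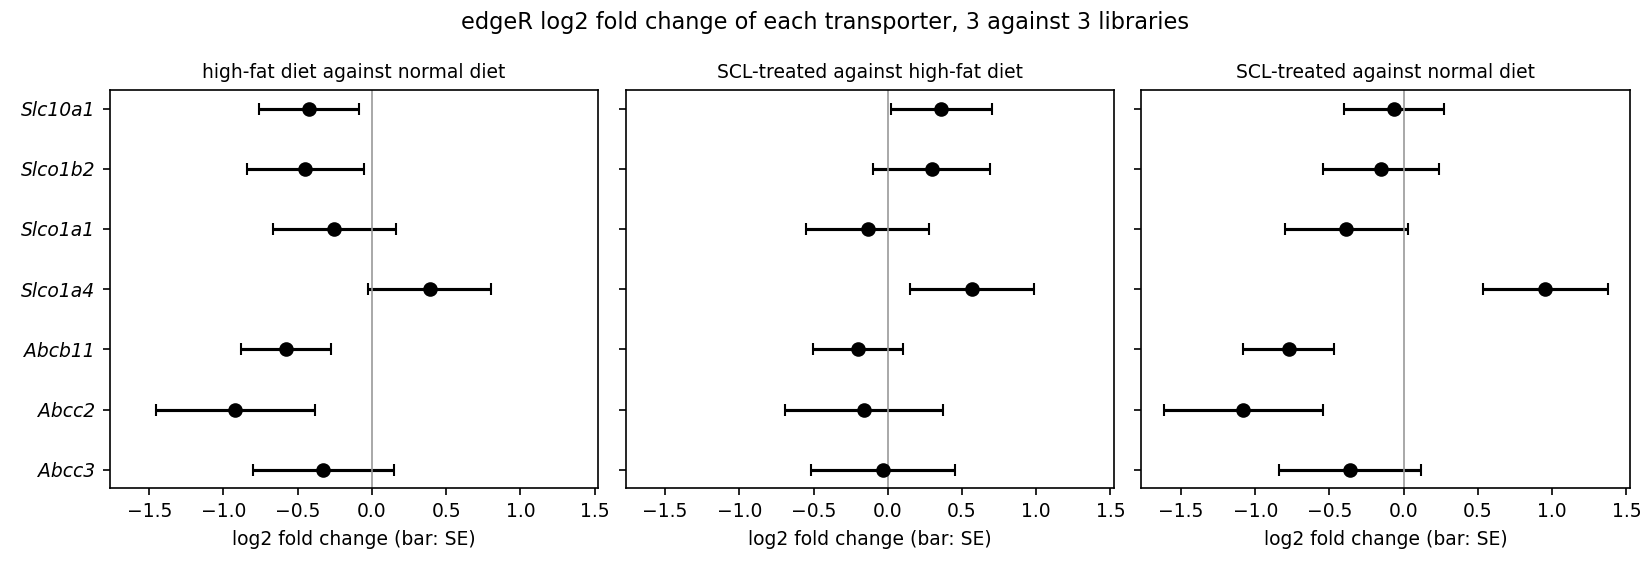
Fitted log2 fold change of each transporter in the 3 comparisons, with bars of 1 standard error from the edgeR fit of 3 against 3 libraries. Slco1a4 is to the right of 0 in each panel, from 0.39 to 0.95, and its bar for SCL against normal diet is the one farthest to the right.

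Among the uptake carriers, Slc10a1 encodes the main sodium-dependent bile acid carrier of the sinusoidal membrane. Its level was 545, 533 and 707 CPM in normal diet replicates 1 to 3, 357, 617 and 357 CPM on high-fat diet, and 617, 423 and 669 CPM with SCL. A pair of high-fat diet libraries lay below every normal diet library and replicate 2 lay among them, so the groups overlapped. The edgeR log2 fold change of Slc10a1 was -0.42 ± 0.34 (SE, adjusted p = 0.915) on high-fat diet, 0.36 ± 0.34 for SCL against high-fat diet (adjusted p = 0.9997) and -0.06 ± 0.34 for SCL against normal diet (adjusted p = 0.952). High-fat diet replicates 1 and 3, with mitochondrial shares of 4.90% and 44.1%, had nearly the same Slc10a1 level on TMM-scaled CPM. By FPKM they measured 264 and 192, and replicate 3 was the lowest of all libraries. Without high-fat diet replicate 2, the Slc10a1 value on high-fat diet was -0.75.

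Slco1b2 encodes the liver-specific polypeptide that carries bile acids, bilirubin conjugates and many drugs. Its level was 546, 511 and 336.5 CPM on normal diet, 514, 327 and 181 CPM on high-fat diet, and 417, 347 and 489 CPM with SCL. The lowest library was high-fat diet replicate 3, and every pair of groups overlapped. The log2 fold changes of Slco1b2 were -0.45 ± 0.39, 0.30 ± 0.39 and -0.15 ± 0.39 (SE) in the 3 comparisons, with edgeR adjusted p of 0.915, 0.9997 and 0.899. The high-fat diet value of Slco1b2 was -0.88 without high-fat diet replicate 1 and -0.15 without replicate 3.

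Slco1a1 encodes an organic anion carrier that is known to be more abundant in male than in female rodent liver. It measured 206, 188 and 137 CPM on normal diet, 257, 109.9 and 79.1 CPM on high-fat diet, and 157, 109.5 and 140.4 CPM with SCL. High-fat diet held both the highest and the lowest library of the series, a range of 3.25 times, against 1.503 times on normal diet. The fitted log2 fold changes of Slco1a1 were -0.25 ± 0.41, -0.13 ± 0.41 and -0.39 ± 0.41 (SE), each within its error of 0, with edgeR adjusted p of 0.931, 0.9997 and 0.754. The high-fat diet value of Slco1a1 was -0.92 without high-fat diet replicate 1 and 0.045 without replicate 3.

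Slco1a4 encodes a carrier of bile acids, steroid conjugates and cardiac glycosides that is known to be inducible by xenobiotics. Its level was 231, 179 and 313 CPM on normal diet, 415, 397 and 134 CPM on high-fat diet, and 443, 439.6 and 516 CPM with SCL. On this scale all 3 SCL-treated libraries were above all 6 others, and high-fat diet was divided, with replicates 1 and 2 above the normal diet range and replicate 3 below it. By FPKM, without TMM, Slco1a4 measured 67.4, 54.4 and 83.3 on normal diet, 136, 100.5 and 31.9 on high-fat diet, and 121, 97.3 and 122 with SCL. There high-fat diet replicate 1 was the highest of all libraries, and all 3 SCL-treated libraries were above normal diet and overlapped high-fat diet. Against normal diet, SCL stood 1.94-fold higher (log2 fold change 0.95 ± 0.42, SE), with an edgeR unadjusted p of 0.0452 and an adjusted p of 0.665. Against high-fat diet the log2 fold change of Slco1a4 was 0.57 ± 0.42 (unadjusted p = 0.204, adjusted p = 0.9997), and high-fat diet against normal diet gave 0.39 ± 0.42 (adjusted p = 0.922). SCL-treated replicate 2, with 49.0% mitochondrial reads, measured 439.6 CPM and 97.3 FPKM of Slco1a4. SCL-treated replicate 1, with 10.97%, measured 443 CPM and 121 FPKM. High-fat diet replicate 3, with 44.1%, was the lowest of all libraries on both scales. Without the 2 libraries above 40% mitochondrial, the Slco1a4 log2 fold change was 0.99 for SCL against normal diet, 0.75 for high-fat diet against normal diet and 0.24 for SCL against high-fat diet. Its edgeR adjusted p was then 0.662, 0.9995 and 0.932. Without high-fat diet replicate 1 the Slco1a4 log2 fold change was 0.95 for SCL against normal diet, 0.13 for high-fat diet against normal diet and 0.82 for SCL against high-fat diet, and without high-fat diet replicate 3 the last was 0.20.

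**Figure D3:**
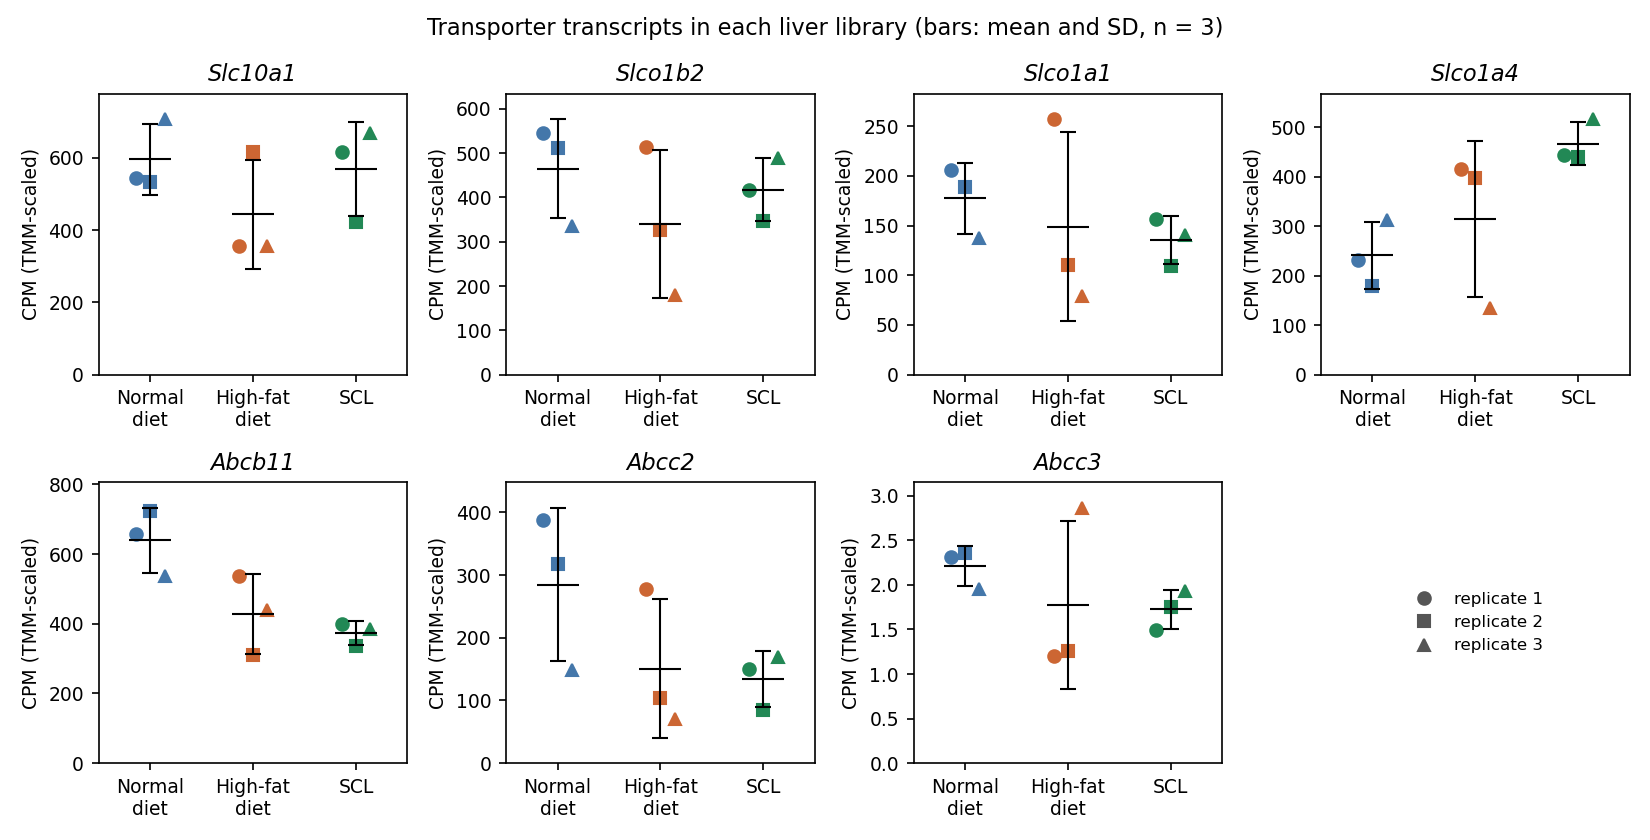
CPM of each transporter in each library on TMM-scaled library sizes, with 1 panel per gene, points shaped by replicate, and bars for the mean and SD of 3 libraries. In the Slco1a4 panel the SCL-treated points lie between 439.6 and 516 CPM, above all others on this scale, and in the Abcb11 panel they lie between 336 and 400.0 CPM, below the normal diet points.

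Of the canalicular exporters, Abcb11 encodes the bile salt export pump. It measured 657, 723 and 537.7 CPM on normal diet, 537.5, 309 and 439 CPM on high-fat diet, and 400.0, 336 and 384 CPM with SCL. On this scale normal diet libraries were all above the rest, although high-fat diet replicate 1 reached within 1 CPM of the lowest of them, and SCL-treated libraries lay inside the high-fat diet range. By FPKM, high-fat diet replicate 1 (132) was above normal diet replicate 3 (107). The mean was 639 ± 94.1 CPM on normal diet, 429 ± 115 CPM on high-fat diet and 373 ± 33.3 CPM with SCL (SD, n = 3). In edgeR the Abcb11 log2 fold change was -0.58 ± 0.30 on high-fat diet (SE, unadjusted p = 0.0846, adjusted p = 0.911). SCL against normal diet gave -0.78 ± 0.30 (unadjusted p = 0.0276, adjusted p = 0.665), a 1.71-fold lower level on TMM scaling, and SCL against high-fat diet gave -0.20 ± 0.30 (adjusted p = 0.9997). With libraries scaled to hepatocyte markers, the Abcb11 log2 fold change was 0.09 on high-fat diet and -0.38 with SCL, both against normal diet.

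Abcc2 encodes the canalicular exporter of conjugated bilirubin. Its level was 388, 317 and 149 CPM on normal diet, 277, 105 and 70.1 CPM on high-fat diet, and 149.9, 84.5 and 169.6 CPM with SCL. Normal diet replicate 3 sat with the SCL-treated libraries and high-fat diet replicate 1 was nearer to the other normal diet libraries than to its own group, so every pair of groups overlapped. The log2 fold change of Abcc2 was -0.92 ± 0.53 on high-fat diet and -1.08 ± 0.54 with SCL against normal diet (SE), the most negative member value in both. Their edgeR adjusted p were 0.911 and 0.665 and the unadjusted p 0.114 and 0.0698. SCL against high-fat diet gave -0.16 ± 0.53 (adjusted p = 0.9997). With the log2 mitochondrial share as a covariate, the Abcc2 values against normal diet were -0.28 ± 0.30 on high-fat diet and -0.27 ± 0.31 with SCL, nearer to 0 and with a smaller error. The high-fat diet value of Abcc2 was -1.71 without high-fat diet replicate 1 and -0.58 without replicate 3.

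Abcc3 encodes the basolateral exporter of conjugates. Between 16 and 41 reads per library matched it, or 2.32, 2.36 and 1.95 CPM on normal diet, 1.20, 1.26 and 2.87 CPM on high-fat diet, and 1.497, 1.75 and 1.93 CPM with SCL. High-fat diet replicate 3, one of the 2 libraries above 40% mitochondrial, was the highest of all and replicates 1 and 2 of that group were the lowest. The SCL-treated libraries lay under the lowest normal diet library. The nearest values were those of SCL-treated replicate 3 (22 reads) and normal diet replicate 3 (27 reads). The log2 fold changes of Abcc3 were -0.33 ± 0.48, -0.03 ± 0.48 and -0.36 ± 0.48 (SE), with edgeR adjusted p of 0.929, 0.9997 and 0.797. The high-fat diet value of Abcc3 was -0.85 without high-fat diet replicate 3 and -0.12 without replicate 1.

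In the authors' deposited table of normal diet and high-fat diet, no member had an adjusted p under 0.05 among 53 genes that did. Their log2 values, given as normal diet over high-fat diet, were 0.585 for Abcb11 (adjusted p = 0.776), 0.925 for Abcc2 (adjusted p = 0.827) and -0.385 for Slco1a4 (adjusted p = 0.954). The authors' deposited table of SCL and high-fat diet listed 0 genes at that threshold, with 0.554 for Slco1a4.

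Since library scaling cancels inside a library, Slco1a4 was also set against each other member as a ratio of FPKM, a measure chosen after the values were seen. Its ratio to its neighbour Slco1a1 was 0.672, 0.569 and 1.37 on normal diet, 0.967, 2.17 and 1.01 on high-fat diet, and 1.69, 2.41 and 2.20 with SCL. Its ratio to Abcb11 was 0.472, 0.331 and 0.780 on normal diet, 1.04, 1.72 and 0.408 on high-fat diet, and 1.49, 1.75 and 1.80 with SCL. In both ratios every SCL-treated library exceeded every normal diet library, and high-fat diet overlapped both. The same held for the ratios to Abcc2, Abcc3, Slc10a1 and Slco1b2, and the 6 ratios share their numerator, so they are not separate findings. Slco1a4 was also the 1 member with an edgeR log2 fold change above 0 for SCL against normal diet. The separation of these ratios is therefore no support beyond that value. Mean log2 ratios differed between SCL and normal diet by 1.07 (Slc10a1) to 2.02 (Abcc2), with an exact two-sided permutation p of 0.1 for each, which is the smallest that 3 against 3 libraries allow. High-fat diet against normal diet gave exact p of 0.3 to 0.5, and SCL against high-fat diet 0.2 to 1.0.

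**Figure D4:**
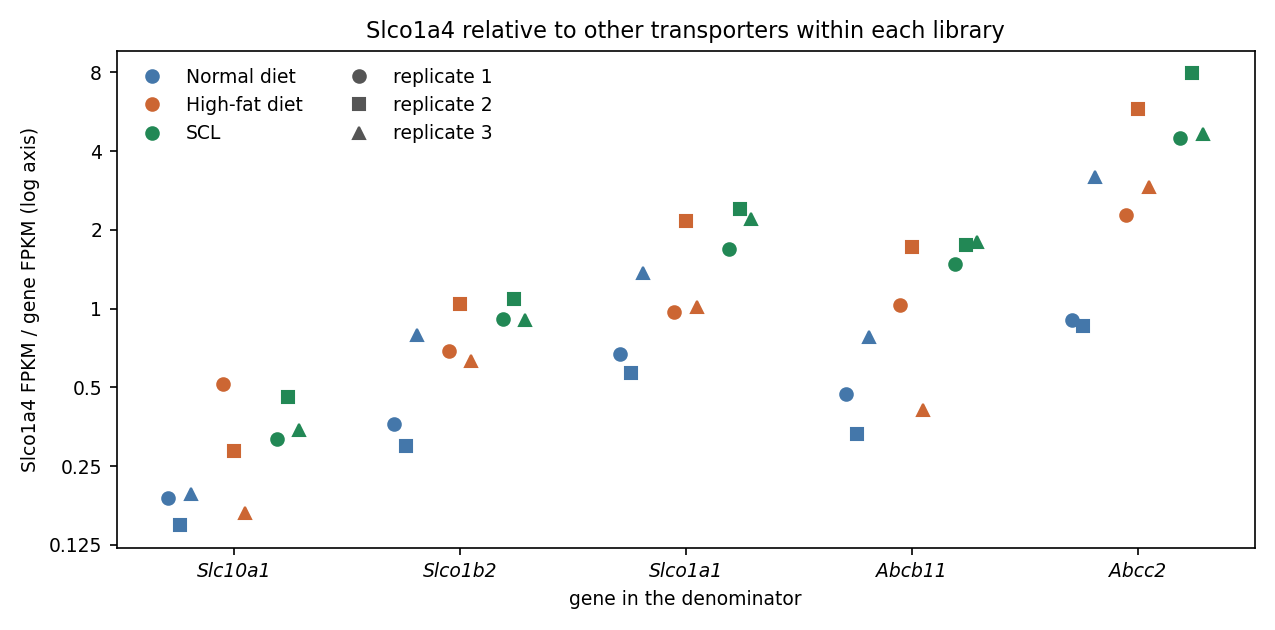
Slco1a4 FPKM divided by the FPKM of another transporter in the same library, on a log axis, with 1 point per library and the denominator named on the x axis. For each denominator the SCL-treated points lie above the normal diet points, for example 1.69 to 2.41 against 0.569 to 1.37 for Slco1a1. Abcc3 is not drawn because its FPKM is far lower.

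Members were then compared over the 9 libraries by correlation of log2 CPM, in 21 pairs with exact permutation p adjusted by Benjamini-Hochberg. Abcc2, Slco1a1 and Slco1b2 formed the 3 pairs with an adjusted p under 0.05. Abcc2 and Slco1a1 had r = 0.93 (exact permutation p = 0.000482, adjusted 0.00467) and rho = 0.93 (p = 0.00075, adjusted 0.00787). The pair Abcc2 and Slco1b2 had r = 0.86 (exact permutation p = 0.00035, adjusted 0.00467) and rho = 0.93 (p = 0.00075, adjusted 0.00787). For Slco1a1 and Slco1b2 these were r = 0.89 (exact permutation p = 0.000667, adjusted 0.00467) and rho = 0.92 (p = 0.00131, adjusted 0.00918). Without the 2 libraries farthest from the median, r was 0.90, 0.86 and 0.87. After subtracting group means it was 0.95, 0.94 and 0.93, so the relation was present within groups. A relation between the group means was not tested. In the 7 libraries at or below 40% mitochondrial, r was 0.87, 0.88 and 0.81.

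Of 7 members, Slco1a1 and Slco1b2 also went with the mitochondrial share of the library at an adjusted p under 0.05 by r, and 0 of 7 did by rho. Against the log2 share, Slco1a1 had r = -0.81 (exact permutation p = 0.00887, adjusted over 7 members 0.0311), with rho = -0.82 (p = 0.0108, adjusted 0.0754). Slco1b2 had r = -0.78 (exact permutation p = 0.00813, adjusted 0.0311) and rho = -0.70 (p = 0.0433, adjusted 0.101). For Abcc2 the values were r = -0.74 (exact permutation p = 0.0244, adjusted 0.0569) and rho = -0.75 (p = 0.0255, adjusted 0.0892). Leaving out the 2 libraries farthest from the median share gave r of -0.65, -0.77 and -0.45, and within groups r was -0.88, -0.90 and -0.94. Slco1a4 (r = -0.33), Abcb11 (r = -0.34) and Slc10a1 (r = -0.14) had adjusted p of 0.451 or above by the same exact permutation. Without the 2 libraries farthest from the median share their r was -0.26, -0.09 and 0.70, so that of Slc10a1 changed sign. Within groups it was -0.43, -0.59 and -0.17. A high r was also common among other genes: 6.99% of all genes reached r of at least 0.86 with Abcc2, 6.22% with Slco1a1 and 2.62% with Slco1b2. The part of the mitochondrial share in these pairs was not tested beyond the values given.

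**Figure D5:**
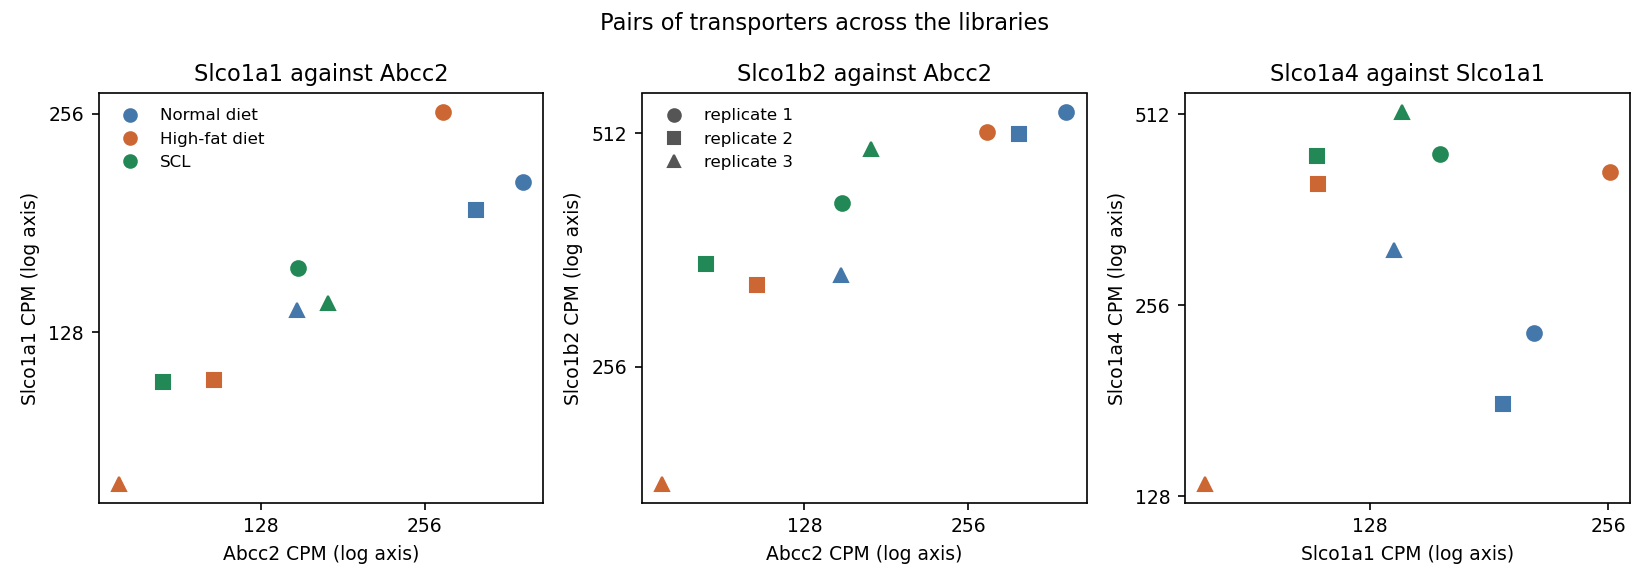
CPM of pairs of transporters across the 9 libraries, both axes logarithmic, coloured by group and shaped by replicate. Slco1a1 and Slco1b2 follow Abcc2 (r = 0.93 and 0.86), while for Slco1a4 and its neighbour Slco1a1 r is 0.20.

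The neighbours Slco1a1 and Slco1a4 had no correlation past the threshold. Their r was 0.20 (exact permutation p = 0.598, adjusted 0.837) and rho 0.10 (p = 0.81, adjusted 1.0), and without the 2 libraries farthest from the Slco1a1 median r was -0.72. It was 0.52 after subtracting group means and -0.32 in the 7 libraries at or below 40% mitochondrial, so its sign differed between these views. Abcb11 and Abcc2, the canalicular exporters, had r = 0.79 (exact permutation p = 0.0139, adjusted 0.0586) and rho = 0.65 (p = 0.0666, adjusted 0.28), with r = 0.54 without the 2 farthest, 0.67 within groups and 0.88 in the 7 libraries. Abcc3 and Slco1a4 had r = -0.79 (exact permutation p = 0.0132, adjusted 0.0586) and rho = -0.70 (p = 0.0433, adjusted 0.227), with r = -0.90 without the 2 farthest, -0.91 within groups and -0.69 in the 7 libraries. In all, 13 of the 21 pairs had a positive r.

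By a search of 11385 named genes, those most like each member over the 9 libraries, by r of log2 CPM, are given as a description. For Slc10a1 they were Serpinc1 (0.98), which encodes antithrombin, and Apoh (0.96). Slco1a4 was closest to Akr1d1 (0.96), a reductase of bile acid synthesis, and Efhd2 (0.96). Abcc2 lay nearest to Atp7b (0.995), the copper-exporting ATPase of Wilson disease, and Adam10 (0.99). Slco1a1 was most like Nt5e (0.99) and Adora1 (0.98), an ecto-nucleotidase and an adenosine receptor. Slco1b2 was most like Yipf6 and Pm20d1 (both 0.98), Abcb11 like Fam171a1 and Pik3ap1 (both 0.98), and Abcc3 like Lrrn1 (0.93) and Aspg (0.92).

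Genes around the transporters were read from 6 lists, on which edgeR called 0 genes in each comparison. Over all genes, edgeR gave an unadjusted p under 0.05 to 4.32% on high-fat diet. The share was 1.95% for SCL against high-fat diet and 6.88% for SCL against normal diet. Groups did not overlap on TMM-scaled CPM for 10.6%, 4.78% and 15.3% of all genes in the same order. At an adjusted p under 0.05, DESeq2 called 0.416%, 0.00832% and 0.333% of all genes, and limma-voom 0.216%, 0% and 1.26%. Among other hepatic transporters, 15 were tested, and an unadjusted p under 0.05 was reached by 0 higher and 1 lower on high-fat diet, 0 and 1 for SCL against high-fat diet, and 0 and 0 for SCL against normal diet. DESeq2 and limma-voom called 0 of them. The 2 with the highest mean CPM over the 9 libraries, which is not scaled to length, were Abcc6, an ATP-dependent exporter, and Slco2a1, the prostaglandin transporter. Abcc6 measured 182, 199 and 321 CPM on normal diet, 233, 421 and 673 CPM on high-fat diet, and 195, 1060.2 and 198 CPM with SCL. Its highest library in each of the latter groups was the one above 40% mitochondrial, and its groups overlapped. Slco2a1 stood at 259 ± 40.3, 261 ± 137 and 307 ± 55.7 CPM (SD, n = 3) across normal diet, high-fat diet and SCL.

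Of 15 tested genes for bile acid synthesis and conjugation, 2 were higher and 3 lower by unadjusted p in edgeR on high-fat diet, 1 and 0 for SCL against high-fat diet, and 2 and 1 for SCL against normal diet. The highest mean CPM over the 9 libraries was that of Slc27a2, which joins coenzyme A to long-chain fatty and bile acids, and Baat, which conjugates bile acids with amino acids. Slc27a2 averaged 1297 ± 209 CPM on normal diet, 1850 ± 629 CPM on high-fat diet and 2105 ± 537 CPM with SCL (SD, n = 3). Baat averaged 971 ± 137, 1504 ± 596 and 1498 ± 534 CPM. In both, the SCL-treated libraries lay above all normal diet libraries (edgeR adjusted p = 0.665 and 0.671). In that comparison the groups did not overlap for 15.3% of all genes.

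DESeq2 and limma-voom both called Slc27a5, the bile acid coenzyme A ligase, lower on high-fat diet, named here after its values were seen. It measured 1022, 900.1 and 428 CPM on normal diet against 300.1, 252 and 297 CPM on high-fat diet. For this comparison the adjusted p was 0.0110 in DESeq2 and 0.0376 in limma-voom, and 0.605 in edgeR. With SCL, Slc27a5 measured 512, 481 and 523 CPM, above all high-fat diet libraries and overlapping normal diet. SCL against high-fat diet gave a log2 fold change of 0.84 (edgeR unadjusted p = 0.036, adjusted p = 0.9997). DESeq2 alone called Cyp7a1, the rate-limiting enzyme of bile acid synthesis and also named after its values were seen, for SCL against normal diet. Cyp7a1 measured 40.8, 24.4 and 24.5 CPM on normal diet, 197, 79.0 and 69.0 CPM on high-fat diet, and 41.5, 269 and 142 CPM with SCL. Both other groups lay above normal diet (on high-fat diet log2 1.94, edgeR unadjusted p = 0.0102, adjusted p = 0.911), and SCL against normal diet had a DESeq2 adjusted p of 0.0486 and an edgeR adjusted p of 0.665. Neither tool called another gene of this list.

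Among 20 transcription factors and signals of bile acid transport, 1 was higher and 0 lower by unadjusted p in edgeR on high-fat diet, 0 and 0 for SCL against high-fat diet, and 1 and 1 for SCL against normal diet. Hnf4a, a nuclear receptor that sustains hepatocyte genes, measured 422 ± 109.8 CPM on normal diet, 383 ± 178 CPM on high-fat diet and 250.1 ± 81.8 CPM with SCL (SD, n = 3), and its groups overlapped. Cebpb stood at 334 ± 88.0, 340.2 ± 151 and 332 ± 86.7 CPM. Nfe2l2, which encodes NRF2, was called for SCL against normal diet by DESeq2 (adjusted p = 0.0128) and limma-voom (adjusted p = 0.0257), with 0.655 in edgeR, and is named after its values were seen. Its level was 73.4, 55.5 and 75.5 CPM on normal diet, 124, 88.2 and 158 CPM on high-fat diet, and 145, 157 and 193 CPM with SCL. The high-fat diet libraries too were all above normal diet (log2 fold change 0.85, edgeR unadjusted p = 0.0139, adjusted p = 0.911).

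The 17 genes of the canalicular scaffold and of trafficking had 0 higher and 1 lower by unadjusted p in edgeR on high-fat diet, 0 and 1 for SCL against high-fat diet, and 0 and 2 for SCL against normal diet, and DESeq2 and limma-voom called 0. Ceacam1 and Dpp4, both glycoproteins of the canalicular membrane, averaged 136 ± 17.1 and 162 ± 9.33 CPM on normal diet, and 116.5 ± 19.1 and 129 ± 17.9 CPM with SCL (SD, n = 3). On high-fat diet their means were 109.7 ± 26.5 and 122.5 ± 32.3 CPM. The SCL-treated libraries of Dpp4 were below all normal diet libraries, with an edgeR adjusted p of 0.698. Groups did not overlap for 15.3% of all genes there.

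Of 18 xenobiotic and NRF2 target genes, 1 was higher and 1 lower by unadjusted p in edgeR on high-fat diet, 0 and 0 for SCL against high-fat diet, and 1 and 0 for SCL against normal diet. In the last comparison 9 had a log2 fold change above 0 and 9 below, with a median of 0.03, as for all genes. Gstm1 averaged 689.6 ± 162, 1040.3 ± 239 and 1019 ± 351 CPM across normal diet, high-fat diet and SCL (SD, n = 3), and Mgst1 averaged 1648 ± 428, 2005 ± 836 and 2150 ± 1051 CPM. Both encode glutathione transferases, which make substrates of MRP2, and both were lowest among SCL-treated libraries in replicate 2. Aldh1a1 was called higher with SCL than on normal diet by DESeq2 (adjusted p = 0.0354) and limma-voom (adjusted p = 0.0222), with 0.665 in edgeR, and is named after its values were seen. It measured 153, 198 and 256 CPM on normal diet, 396, 258 and 462 CPM on high-fat diet, and 582, 368 and 597 CPM with SCL, so high-fat diet libraries were above normal diet as well (edgeR unadjusted p = 0.0282, adjusted p = 0.911).

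The list of sex-patterned rat liver genes, growth hormone signalling genes among them, had 12 tested genes. Of these, 0 were higher and 3 lower by unadjusted p in edgeR on high-fat diet, 1 and 0 for SCL against high-fat diet, and 0 and 2 for SCL against normal diet. The male-specific Cyp2c11 averaged 1015 ± 271, 1250.5 ± 469 and 1394 ± 453 CPM across normal diet, high-fat diet and SCL (SD, n = 3), and Cyp2c13 averaged 1570 ± 317, 1377 ± 511 and 1913 ± 996 CPM. DESeq2 called 1 gene of the list, Cyp2c12, lower on high-fat diet (log2 fold change -2.71, adjusted p = 0.000264), where edgeR gave 0.336, and limma-voom called 0. Cyp2c12 is named after its values were seen. Reads of these cytochrome P450 relatives can be divided wrongly between them.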

How the data were processed

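Liver RNA of 9 libraries was read from 2 tables, one of normal and high-fat diet and one of SCL-treated and high-fat diet libraries, joined on 15565 shared genes. Per the file headers, the authors deposited raw counts, a normalized signal (the counts after size-factor scaling, not used for tests), FPKM, and their own log2 fold changes, p-values and adjusted p-values. The submitters' processing notes name DESeq2, without a version, and the mouse build mm9, which was not taken as the build of these rat counts. For the aligner, the counter, the use of strand and the handling of reads shared by close relatives, the answer is: not given in the sources used here.

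The test was edgeR 4.0.16 under R 4.3.3, with filterByExpr at a minimum count of 10 (12041 genes), TMM, all 9 libraries in 1 quasi-likelihood fit with group as the only term (6 residual degrees of freedom), Benjamini-Hochberg adjustment over all genes and a threshold of 0.05. The SE was obtained by dividing the size of the log2 fold change by the root of F. CPM uses TMM-scaled library sizes, and FPKM is as deposited. The first group named is the numerator. DESeq2 1.42.0 and limma 3.58.1 (voom with quality weights) were run beside it. Each of these tools was first run on simulated counts, and no result here rests on that run. Other alternatives were DESeq2 size factors, library totals, scaling to hepatocyte markers, leaving out the count filter, fitting the 6 compared libraries alone, a block for the replicate number, the mitochondrial share as covariate, mitochondrial transcripts removed, the 2 libraries above 40% mitochondrial left out, and each library left out in turn. Python 3.11.15, pandas 2.3.3 and matplotlib 3.10.9 made the rest.

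The members, the 6 lists and the tests were chosen with earlier results of these data known. Named were all members, the 2 genes of a list with the highest mean CPM where edgeR called none, and the 2 genes most like each member (predicted-locus and mitochondrial names left out). Same-numbered libraries deviated together, with r over 0.1, in 4 of 9 pairs, so the numbers were not taken as pairing samples. No 2 libraries of a group agreed within sampling noise (the smallest chi-square was 38.5 times its degrees of freedom). Depth was 12413774 to 15521648 reads per library, with 16 to 41 reads for Abcc3.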

Additional observations from a re-analysis of the deposited data

How the results depend on the processing

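Across 20 alternative fits, 0 of 7 members were called in each comparison by an adjusted p under 0.05, and the lowest adjusted p of a member in any fit was 0.0611 (limma-voom). Calls were rare among all genes too, of which 11596 to 15565 were tested. No edgeR fit called more than 4 genes in a comparison. In the 3 comparisons DESeq2 called 50, 1 and 40 genes, and limma-voom 26, 0 and 152. Of 420 member values from these fits, 384 kept their sign and 36 did not, and the cause was not tested. Slco1a4 stayed above 0 in every fit, at 0.73 to 1.38 for SCL against normal diet and 0.13 to 0.83 for high-fat diet against normal diet. Abcb11 stayed below 0 for SCL against normal diet, at -1.01 to -0.38, and Abcc2 in both comparisons with normal diet, at -1.71 to -0.28 and -1.39 to -0.27.

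Scaling to hepatocyte markers moved the median log2 fold change of all genes by its construction, to 0.66 for high-fat diet and 0.44 for SCL against normal diet. On high-fat diet it gave 0.094 for Abcb11, 0.47 for Abcc3, 0.12 for Slc10a1, 0.28 for Slco1a1 and 0.056 for Slco1b2. For SCL against normal diet it gave 0.050 for Abcc3, 0.27 for Slc10a1 and 0.21 for Slco1b2. With the mitochondrial share as covariate, Slco1a1 was 0.14 on high-fat diet and 0.17 with SCL against normal diet, where Slco1b2 was 0.35. For SCL against high-fat diet that fit gave 0.016 for Abcc2, 0.032 for Abcc3 and 0.027 for Slco1a1. Without the 2 libraries above 40% mitochondrial, Slco1a1 was 0.046 on high-fat diet, Abcc3 0.47 for SCL against high-fat diet and Slc10a1 0.10 for SCL against normal diet. limma-voom gave 0.084 for Abcb11, 0.53 for Abcc2, 0.064 for Abcc3 and 0.42 for Slco1a1 in SCL against high-fat diet, and 0.15 for Slc10a1 in SCL against normal diet.

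The number of members with an unadjusted p under 0.05 on high-fat diet, 0 as reported, was 1 with DESeq2 (5.92% of all genes), 1 without the 2 libraries above 40% mitochondrial (4.001%) and 4 with limma-voom (30.0%). These were not the same genes. The DESeq2 member was Abcb11, lower, and the limma-voom members were all lower. Without the 2 libraries the member was Slco1a4, higher. For SCL against normal diet, 2 as reported, the number was 1 with library totals (6.88% of all genes), 1 with hepatocyte marker scaling (6.49%), 1 with the mitochondrial covariate (5.67%), and 3 with DESeq2 (9.60%), limma-voom (28.1%) or only the 6 libraries compared (11.8%). With library totals the member was Abcb11, lower, and with marker scaling or the covariate it was Slco1a4, higher. With the replicate block the number was 1 on high-fat diet (4.78%), namely Abcc2, lower, and 0 for SCL against normal diet (8.89%). The replicate block gave 0.082 for Abcc2, 0.023 for Abcc3 and 0.018 for Slco1a1 in SCL against high-fat diet and changed no adjusted call.

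Leaving out 1 library at a time, that number ran from 0 to 4 on high-fat diet (4 without high-fat diet replicate 1) and from 0 to 3 for SCL against normal diet. The shares of all genes in these fits ran from 1.87% to 20.6% and from 2.32% to 12.7%. Slco1a1 ran from -0.92 to 0.045 on high-fat diet, and Slc10a1 from -0.21 to 0.11 for SCL against normal diet. For SCL against high-fat diet the ranges were -0.39 to 0.0033 for Abcb11, -0.51 to 0.63 for Abcc2, -0.25 to 0.48 for Abcc3, -0.44 to 0.53 for Slco1a1 and -0.014 to 0.72 for Slco1b2. The upper ends for Abcb11, Abcc2, Slco1a1 and Slco1b2 came without high-fat diet replicate 1.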
